A study of Mus musculus with 19 samples.

Results

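Sorted cells that carried the surface antigen Thy were compared with cells that lacked it, among limb cells negative for both 6C3 and CD105. The members were chosen by the population field of the sample labels: 3 arrays of Thy+6C3-CD105- cells and 3 of Thy-6C3-CD105- cells, 6 of the 19 arrays in the series. The cells came from the fore and hind limbs of mice at postnatal day 3, pooled over a litter. The genotype field of both populations reads wild-type, while the growth protocol calls the mice GFP-labeled. Both populations had passed the same gate, negative for CD45, Ter119 and Tie2 and positive for integrin alpha V. CD200 was stained as well, but no population name gives its state. RNA was amplified in 2 rounds before hybridization to Affymetrix mouse arrays, and every value below is a log2 level. A difference is the Thy+ minus the Thy- population and is given with its standard error (SE).

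Thy, encoded by Thy1, is a small glycoprotein anchored to the cell surface by lipid and is found on fibroblasts, tendon and periosteal cells, T cells and neurons. Limb cartilage at this age grows by the division, matrix secretion and enlargement of chondrocytes. Sox9 with Sox5 and Sox6 drives their matrix genes, and Indian hedgehog, PTHrP, FGF, BMP and Wnt signals set the pace of enlargement. The perichondrium, tendons, ligaments and joint capsules around it are made by fibrous cells that secrete elastic fibres and small proteoglycans. Bulk RNA of a sorted population does not separate fewer cells of a type from less RNA per cell, and these cannot be told apart here.

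Of 18193 genes tested, 1915 (10.5%) were higher and 1356 (7.45%) lower in Thy+6C3-CD105- cells (limma, Benjamini-Hochberg adjusted p under 0.05), and 1702 of these differed at least 2-fold. The 3 arrays of one population lay wholly above the 3 of the other for 6307 genes (34.7%). The median difference over all genes was 0.13 after quantile normalization, 0.09 with the values as deposited and -0.05 with a common median only. Calls are relative to that shift. Their split moved with it, from 1915 higher and 1356 lower to 1648 and 2028 as deposited, and to 928 and 2640 with a common median. The spread behind each SE and p-value was estimated over all 18 neonatal arrays of the 6 populations. No source says that replicates came from separate litters, so p-values measure only the spread between arrays.

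Thy1 separated the populations as the labels say. It stood at 10.38, 10.31 and 9.99 on the Thy+ arrays and at 5.46, 5.39 and 5.27 on the Thy- arrays. Cells were sorted on this antigen, so its difference of 4.85 ± 0.23 checks the labels and is no finding. The array labelled Thy+6C3-CD105- replicate 3 went against its CD105 label in Eng, which encodes CD105, at 8.58 where its replicates had 7.51 and 7.61. It also correlated least with its own group, at a mean r of 0.936, where the other 5 arrays had 0.956 to 0.983. Without it the counts were 943 higher and 824 lower. Poly-A control signal was high on replicates 2 and 3 of the Thy+ and replicate 1 of the Thy- population and low on the others. With this split as a block 3935 genes were called, and within the high or the low arrays alone one group is a single array. Fitted on the 6 arrays alone, 584 genes were higher and 598 lower. The higher count was 1059 without Thy- replicate 1, and without Thy- replicate 3 there were 762 higher and 787 lower.

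Chondrocyte genes were among the largest falls, which reached from the transcription factors to the enzymes that build the matrix. Of 10 chondrocyte markers all 10 fell, with a median of -2.85 against 0.13 over all genes. The summed level of these markers lay between 14.28 and 14.53 on the Thy+ arrays and between 16.19 and 16.34 on the Thy- arrays, and each of them was above the median gene in at least one of the populations. Of 15 cartilage fibril genes 12 fell (median -2.33), and of 14 genes of aggrecan, link protein and other matrix parts 12 fell (median -2.53). Snorc, a membrane proteoglycan of cartilage, stood at 7.62, 7.81 and 9.80 on the Thy+ and at 12.17, 11.83 and 12.48 on the Thy- arrays. Replicate 3 was the highest Thy+ array, and the groups did not overlap (-3.75 ± 0.43). Chadl, a leucine-rich protein that restrains collagen fibril assembly, fell by 3.02 on the log2 scale (SE 0.35, adjusted p = 1.98e-05).

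Among 23 transcription factors of chondrocytes 13 were lower and 3 higher (median -1.06). Sox9 read 7.09, 7.44 and 9.21 in Thy+ cells and 11.01, 10.40 and 10.77 in Thy- cells. All Thy+ arrays were below all Thy- arrays, and replicate 3 of the Thy+ cells was the nearest. The Sox9 difference was -2.82 ± 0.44 (limma adjusted p = 0.000356). Its partners Sox6 (-2.74 ± 0.44) and Sox5 (-2.49 ± 0.31) fell as well. Foxa3, a forkhead factor that acts with Foxa2 in enlarging chondrocytes, stood at 4.38, 4.68 and 4.52 against 9.67, 9.25 and 7.90. That is a difference of -4.41 ± 0.39 (adjusted p = 7.90e-07), with no overlap and the wider spread among the Thy- arrays. Foxa2 fell by 2.65 (SE 0.27). The 3 higher members were Arid5b (0.85), Hdac4 (0.65) and Nfia (0.58), and all 3 calls ended with a common median, with deposited values, in the fit of the 6 arrays alone and without Thy- replicate 1 or 3, while 1 was left without Thy+ replicate 2 or 3.

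Genes that build and sulfate the chondroitin chains of aggrecan were lower in Thy+ cells. Of 29 glycosaminoglycan genes 10 fell and 1 rose (median -0.50). Chst11, the sulfotransferase that adds sulfate to chondroitin at its main position in cartilage, stood at 8.63, 8.66 and 8.48 in Thy+ and at 11.77, 11.44 and 11.63 in Thy- cells. The groups lay far apart against a narrow spread, with a difference of -3.02 ± 0.19 (limma adjusted p = 1.74e-08). Slc26a2, the sulfate importer whose loss causes chondrodysplasia, fell (-2.48 ± 0.22), as did Slc35d1, which carries sugar nucleotides into the endoplasmic reticulum (-2.84 ± 0.28). Csgalnact1, which starts the chain, fell by 1.96 (SE 0.23). The exception was Chst7, another chondroitin sulfotransferase, at 7.33, 7.15 and 7.42 against 6.22, 6.10 and 6.11. It rose by 1.16 ± 0.23 (adjusted p = 0.00298).

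The plot of the largest changes by array shows the size of these gaps.

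**Figure D1:**
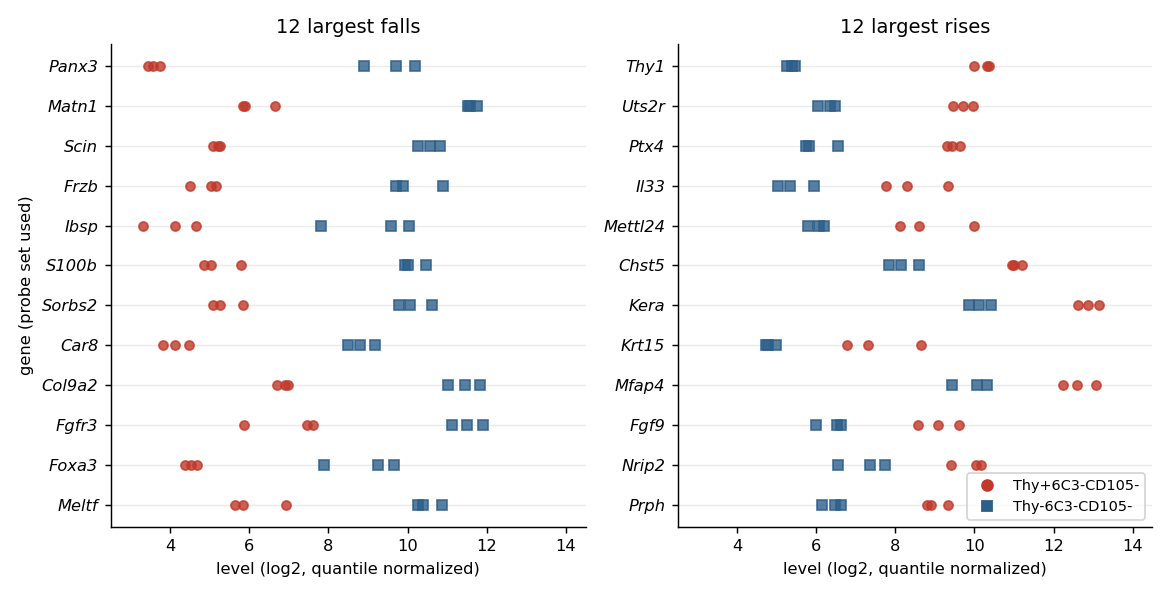
Log2 level on each of the 6 arrays for the 12 largest falls (left) and the 12 largest rises (right) among called genes with no overlap between the groups and with one of the 2 means above the median gene. Circles are Thy+6C3-CD105- and squares Thy-6C3-CD105- arrays; the falls reach -6.02 (Panx3), while the largest rise after Thy1, the sorted antigen, is 3.43 (Uts2r).

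The falls outside matrix genes were of several kinds. Scin, which severs actin filaments, stood at 5.22, 5.26 and 5.08 in Thy+ and at 10.82, 10.56 and 10.26 in Thy- cells. Its gap of -5.36 ± 0.42 (limma adjusted p = 1.70e-07) was one of the widest in the comparison. Car8, a carbonic anhydrase-related protein without the enzyme's activity (-4.68 ± 0.39), Sorbs2, an adaptor of the cytoskeleton (-4.75 ± 0.41), and Meltf, an iron-binding membrane protein (-4.38 ± 0.28), fell too. Tfrc, the transferrin receptor that brings iron into cells, was at 8.48, 8.44 and 7.44 against 10.96, 11.23 and 11.14. It fell by 2.99 on the log2 scale (SE 0.22, adjusted p = 6.96e-08). Tfrc had been listed as an erythroid marker, and the other called member of that list, Ermap, rose by 1.01. The 9 erythroid markers summed to between 9.30 and 9.70 on Thy+ and between 11.19 and 11.42 on Thy- arrays. On the Thy- arrays that sum was close to the level of Tfrc alone. The mean log2 level of the list did not fall, at 5.77 to 6.05 on Thy+ and 5.74 to 5.89 on Thy- arrays. Differences were positive for 8 of the 9 (median 0.41), and 8 of the 9 were below the median gene in both populations.

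Of 19 hypertrophy and mineralization genes 11 fell (median -1.07). Panx3, a membrane channel of enlarging chondrocytes and osteoblasts, stood at 3.73, 3.43 and 3.56 against 10.20, 9.70 and 8.89. The Panx3 difference of -6.02 ± 0.31 (limma adjusted p = 1.65e-09) was the widest of all genes, but its other probe sets gave 0.09 and -0.77. Smpd3, a sphingomyelinase needed for bone and cartilage mineral (-3.65 ± 0.26), and Mmp13, the collagenase of the cartilage front (-3.43 ± 0.41), fell too. The 11 falls were 5 among genes at or above the median level and 7 when probe sets shared between transcripts were left out. Tnfrsf11b, which encodes osteoprotegerin, the decoy receptor that holds back osteoclasts, was at 4.02, 4.01 and 2.97 in Thy+ and at 8.60, 7.62 and 7.64 in Thy- cells. It fell by 4.29 on the log2 scale (SE 0.86, adjusted p = 0.00296). Its other probe set gave 0.44, at a mean level of 5.30 where the set used had 6.38.

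Of 14 genes of the Indian hedgehog and PTHrP loop 5 fell (median -0.54), among them a ligand and receptors. Ihh, the ligand made by chondrocytes that leave the cell cycle, stood at 5.78, 4.91 and 5.56 in Thy+ and at 7.94, 8.17 and 7.88 in Thy- cells. Ptch1, at once the hedgehog receptor and a target of the signal, was at 10.54, 9.63 and 9.44 against 12.08, 12.42 and 12.20. All Thy+ arrays were lower for both genes, with differences of -2.58 ± 0.23 for Ihh and -2.36 ± 0.28 for Ptch1 (limma adjusted p = 8.07e-07 and 2.07e-05). Hhip, a decoy that binds hedgehog (-1.34 ± 0.27), and Pth1r, the PTHrP receptor (-1.42 ± 0.19), fell as well.

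FGF genes went both ways, with 5 of 21 lower and 4 higher. Fgfr3, the receptor that restrains cartilage growth, read 7.60, 7.45 and 5.87 in Thy+ and 11.50, 11.91 and 11.12 in Thy- cells. It fell by 4.54 on the log2 scale (SE 0.38, limma adjusted p = 4.62e-07). Etv5, a transcription factor that FGF signals induce, fell (-2.81 ± 0.33), and so did Fgfrl1, a receptor without a kinase (-2.05 ± 0.33). The ligand Fgf9 was at 9.60, 8.58 and 9.08 against 6.00, 6.63 and 6.52. It rose by 2.71 ± 0.38 (adjusted p = 0.000134), and Spry1, a feedback inhibitor of the pathway, by 1.58 ± 0.33. Each call above rested on arrays that did not overlap. The Fgfr4 and Fgfr2 calls depended on the probe set, since Fgfr4 went from 0.85 to -1.76 and Fgfr2 from -1.11 to 0.03 when probe sets shared between transcripts were left out. The 4 rises were 2 without Thy- replicate 1 or 2 or without Thy+ replicate 3, and the 5 falls were 3 without Thy- replicate 1 or 3.

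Of 46 BMP and TGF beta genes 10 fell (21.7%, against 7.45% of all genes) and 5 rose (median -0.19). The share of rises, 10.9%, was near the 10.5% of all genes. Gdf10, a BMP-family ligand, was at 9.15, 9.11 and 8.82 in Thy+ and at 11.60, 11.76 and 11.85 in Thy- cells, one of the tightest gaps in this family (-2.71 ± 0.15, limma adjusted p = 2.44e-09). Bmp2 stood at 6.49, 6.60 and 5.43 against 10.88, 9.74 and 10.44. It fell by 4.18 on the log2 scale (SE 0.51). Smad7, an inhibitory Smad that these signals induce, fell by 1.99 (SE 0.35). Among the higher genes were Ltbp4, which tethers latent TGF beta to elastic fibres (1.26 ± 0.27), and the BMP antagonist Chrd (1.10 ± 0.27). With a common median none of the 5 rises was called in limma and 16 genes fell. The rises were 1 with deposited values and in the fit of the 6 arrays alone, and 2 without Thy- replicate 1 or without Thy+ replicate 3.

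Of 46 Wnt genes 12 rose and 12 fell, and the median of 0.06 was near that of all genes. Secreted antagonists were found on both sides, with Frzb lower and Sfrp4 higher (1.28). Frzb stood at 5.16, 5.04 and 4.50 in Thy+ and at 9.89, 9.72 and 10.89 in Thy- cells. It fell by 5.27 on the log2 scale (SE 0.34, limma adjusted p = 1.74e-08). Notum, an enzyme that strips the lipid from Wnt ligands, fell (-2.19 ± 0.25), and so did the receptor gene Fzd9 (-2.05 ± 0.32). Lgr4, a receptor of R-spondins, was at 9.36, 9.17 and 5.87 against 11.11, 11.48 and 10.65. Thy+ replicate 3 lay far below its replicates for Lgr4, and the difference of -2.95 ± 0.57 was no longer called in the fit of the 6 arrays alone. On the higher side, the R-spondin ligand gene Rspo2 was at 8.30, 9.51 and 9.03 against 6.93, 7.49 and 7.10 (1.77 ± 0.37, adjusted p = 0.00362). The ligand genes Wnt2 (1.67 ± 0.27) and Wnt6 (1.35 ± 0.27) rose with it. Of the 12 rises 5 were called in the fit of the 6 arrays alone and 6 without Thy- replicate 3.

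**Figure D2:**
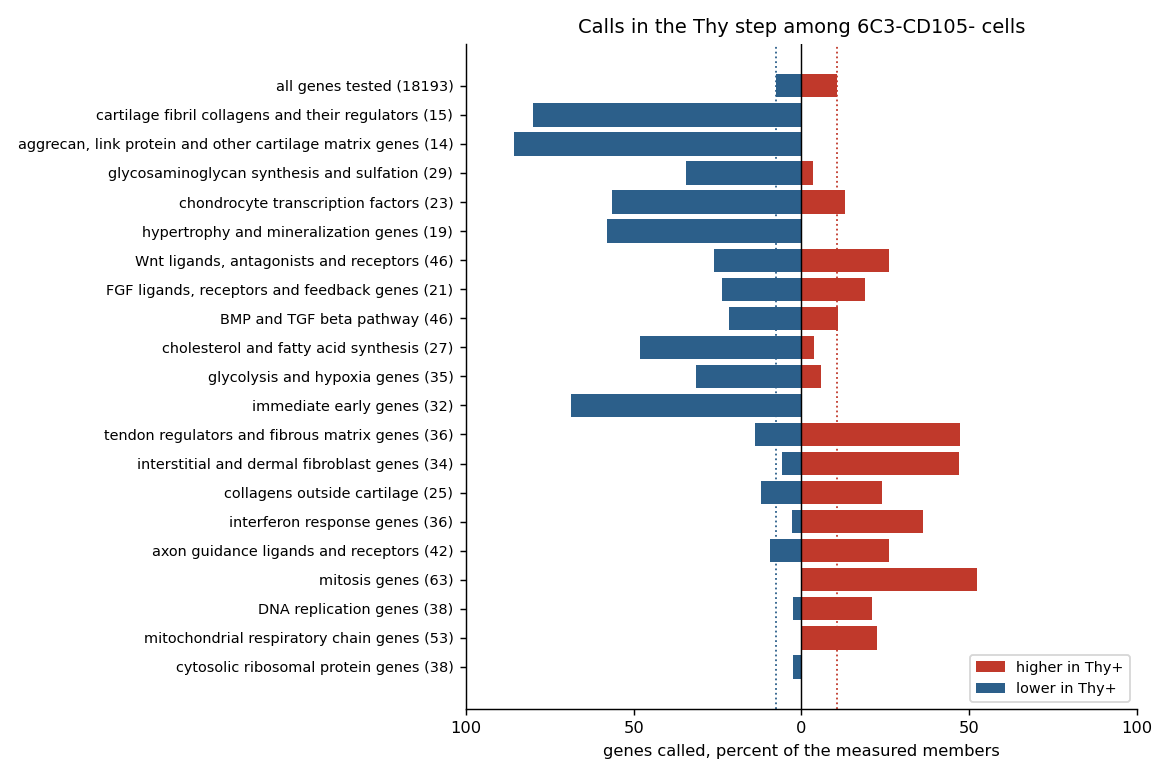
Share of the measured members of selected gene lists (number in brackets) called higher (right) or lower (left) in Thy+6C3-CD105- cells, in percent, with all genes at the top and dotted lines at their 10.5% and 7.45%. The cartilage matrix lists plotted extend to the left up to 85.7%, and the fibrous, fibroblast and mitosis lists extend to the right up to 52.4%.

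Cholesterol synthesis genes were lower in Thy+ cells at several steps of the pathway, which runs from mevalonate through squalene and lanosterol to cholesterol and is controlled by SREBP factors. Of 27 cholesterol and fatty acid genes 13 fell and 1 rose (median -0.94). Msmo1, which removes methyl groups from the sterol ring, stood at 7.79, 8.48 and 8.52 in Thy+ and at 10.64, 10.05 and 11.71 in Thy- cells. Its difference was -2.54 ± 0.45 (limma adjusted p = 0.00112), without overlap. Idi1, an isomerase early in the pathway, was at 9.14, 8.90 and 8.50 against 10.55, 10.37 and 11.97. Cyp51, the lanosterol demethylase, was at 8.54, 8.30 and 6.98 against 9.33, 10.06 and 10.61. For both, each Thy+ array was lower than each Thy- array, with differences of -2.12 ± 0.36 and -2.06 ± 0.34. Sc5d, which acts near the last step, fell by 2.33 (SE 0.40). Thy- replicate 3 was the highest array for Msmo1, Idi1, Cyp51 and Sc5d. The count of 13 was 7 in the fit of the 6 arrays alone and 20 with a common median. The sterol regulatory element TCACNCCAC, searched on both strands in the 250 bases before the start, was absent from these windows for the 8 lower genes with a promoter in the RefSeq table, and 1.04% of 27025 promoters hold it.

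**Figure D3:**
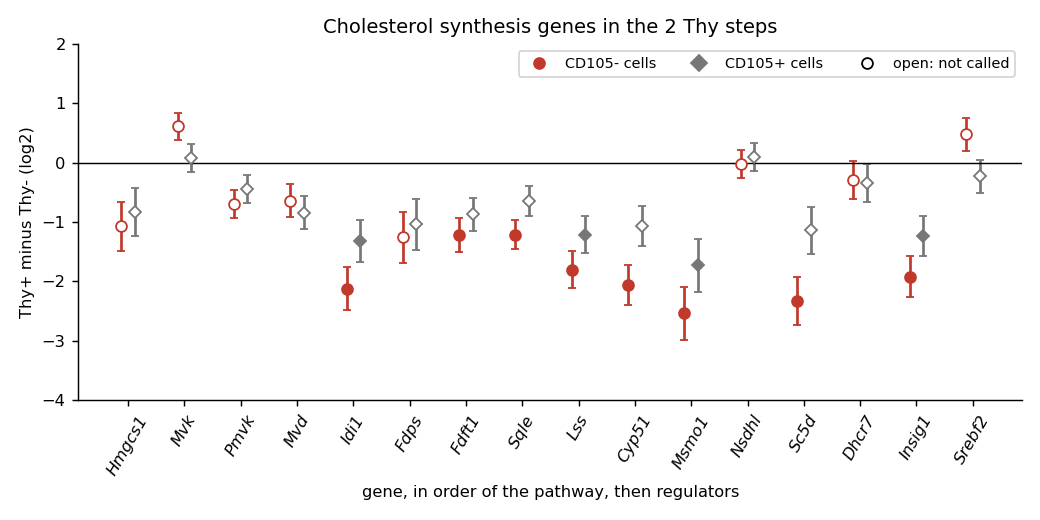
Thy+ minus Thy- log2 difference with SE for cholesterol synthesis genes in pathway order, followed by the regulators Insig1 and Srebf2, in CD105- (circles) and CD105+ cells (diamonds); filled symbols are called, open symbols are not. The called genes lie from Idi1 onward, down to -2.54 for Msmo1 in CD105- cells, whereas the 4 steps before it are open, as are Fdps, Nsdhl and Dhcr7.

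Of 35 glycolysis and hypoxia genes 11 fell and 2 rose (median -0.45). Aldoc, an aldolase of glycolysis, fell (-2.41 ± 0.26), as did Car12, a membrane carbonic anhydrase (-2.91 ± 0.31). Car9, another membrane carbonic anhydrase and a classical hypoxia target, stood at 10.79, 10.60 and 9.84 in Thy+ and at 9.19, 8.41 and 9.13 in Thy- cells. It rose by 1.50 ± 0.25 (limma adjusted p = 0.000660), opposite to Car12. The 11 falls were 5 in the fit of the 6 arrays alone and 18 with a common median.

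Immediate early genes, which cells switch on within minutes of a stimulus, were lower in Thy+ cells: 22 of 32 fell (median -1.54). Atf3, a stress-induced transcription factor, read 8.40, 9.39 and 9.51 in Thy+ and 12.31, 11.36 and 12.94 in Thy- cells. Fosb, a subunit of AP-1, read 8.04, 8.05 and 9.61 against 11.50, 11.63 and 11.20. Neither gene overlapped between groups, with differences of -3.11 ± 0.61 (limma adjusted p = 0.00267) and -2.88 ± 0.48 (adjusted p = 0.000678). Among 25 cyclin-dependent kinase inhibitors and regulators of the cell cycle before DNA synthesis, 9 fell and 2 rose. Gadd45g, a growth arrest gene, fell (-2.05 ± 0.28), and so did Myc, a growth-promoting transcription factor (-1.96 ± 0.40). The only probe set of Gadd45g is shared between transcripts, so the gene had no value when such sets were left out. The 9 falls were 5 without Thy- replicate 1 and 5 when shared probe sets were left out.

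Genes of elastic and fibrous matrix were higher in Thy+ cells. The list of tendon regulators and fibrous matrix had 36 members, of which 17 were called higher and 5 lower (median 0.70). Mfap4, a protein of elastic microfibrils, stood at 12.25, 12.59 and 13.08 in Thy+ and at 10.06, 9.42 and 10.31 in Thy- cells (2.71 ± 0.24, limma adjusted p = 9.40e-07). Mfap5 was at 10.14, 10.16 and 10.45 against 7.66, 7.89 and 7.73 (2.49 ± 0.29, adjusted p = 1.81e-05). Neither gene overlapped between the groups. Kera, a keratan sulfate proteoglycan of tendon and cornea, rose by 2.75 ± 0.26, and Dpt, which binds collagen and decorin, by 2.31 ± 0.32. Thbs1, a thrombospondin, went the other way, at 6.34, 7.95 and 6.89 against 10.15, 10.30 and 10.54. It fell by 3.27 on the log2 scale (SE 0.44, adjusted p = 7.66e-05). The 17 rises were 11 with a common median.

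Of 34 genes of interstitial and dermal fibroblasts 16 rose and 2 fell (median 0.75). Pi16, a secreted protein of fibroblasts around vessels and fascia, stood at 8.61, 8.15 and 8.24 in Thy+ and at 5.86, 6.49 and 5.82 in Thy- cells, a rise of 2.28 ± 0.32 (limma adjusted p = 0.000143). Its other probe set read 0.50 and was not called. Cd248, endosialin, was at 10.09, 9.28 and 9.94 against 7.49, 7.57 and 7.48, without overlap (2.25 ± 0.29, adjusted p = 5.22e-05). The alarmin cytokine Il33 was at 8.30, 9.32 and 7.76 against 5.95, 5.03 and 5.33. It rose by 3.02 ± 0.44. Dlk1, a surface protein related to Notch ligands, and Has2, a hyaluronan synthase, were the 2 falls (-1.91 ± 0.21 and -1.90 ± 0.32), with Dlk1 at -0.35 and no longer called when probe sets shared between transcripts were left out.

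Of 19 retinoic acid genes 4 rose and 1 fell (median 0.53). Aldh1a1, which makes retinoic acid from retinaldehyde, stood at 8.39, 8.74 and 8.93 in Thy+ and at 6.38, 5.99 and 6.09 in Thy- cells. It rose by 2.53 ± 0.33 (limma adjusted p = 6.84e-05), and Aldh1a2, the main enzyme of the embryo for this step, by 1.44 ± 0.30. Crabp1, which binds retinoic acid in the cytoplasm, rose by 1.80 ± 0.37. The fall was Rarg, a retinoic acid receptor (-1.11), whose other probe set read 0.61 and whose call was lost in 9 of 16 other settings, including without any single Thy- array. With a common median 5 genes of the list fell. The 4 rises were 7 without Thy+ replicate 1 and 2 when shared probe sets were left out.

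Genes of collagen secretion and modification changed by member. Of 38, 5 rose (13.2%, against 10.5% of all genes) and 10 fell (26.3%, against 7.45%), with a median of -0.19. Among the rises, Pcolce had 2 probe sets, which gave 0.85 and 0.93. Both are shared between transcripts, so Pcolce had no value when such sets were left out. Colgalt2, which puts galactose on collagen, stood at 6.17, 6.40 and 6.23 in Thy+ and at 9.52, 9.97 and 9.76 in Thy- cells. It fell by 3.49 on the log2 scale (SE 0.20, limma adjusted p = 4.59e-09), and the lysyl oxidase gene Loxl4 fell too (-2.37 ± 0.28). Creb3l1, a transcription factor of the secretory pathway that drives collagen I in bone, was at 10.89, 10.61 and 10.76 against 9.40, 9.37 and 9.62 (1.29 ± 0.17, adjusted p = 6.80e-05). Of 25 collagens outside cartilage 6 rose and 3 fell, with Col18a1, a basement membrane collagen, at 1.91 ± 0.38 and Col25a1, a membrane collagen, at -2.68 ± 0.44. Another probe set of Col25a1 read 0.71. The 10 lower genes of secretion and modification were 17 with a common median, and the 5 higher were 1 there and 3 without Thy- replicate 1 or Thy+ replicate 3.

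Of 42 axon guidance genes 11 rose (26.2%) and 4 fell (9.52%), against 10.5% and 7.45% of all genes. Their median of 0.12 was near that of all genes. Sema3b, a secreted semaphorin, stood at 9.40, 9.89 and 10.41 in Thy+ and at 7.38, 7.63 and 7.45 in Thy- cells (2.41 ± 0.24, limma adjusted p = 2.73e-06). Those 11 rises were 4 without Thy+ replicate 3, 6 without Thy- replicate 3 and 5 in the fit of the 6 arrays alone. Of the 4 guidance falls 1 was left without Thy- replicate 1 or Thy+ replicate 3. Of 20 IGF genes 6 rose and 5 fell. Igf1 was at 12.41, 12.71 and 11.61 against 10.94, 11.03 and 10.05 (1.57 ± 0.26, adjusted p = 0.000624). Pappa2, a protease that frees IGF from its binding proteins, fell by 1.87 (SE 0.22). Of 17 complement genes 3 rose (17.6%, against 10.5% of all genes). They were Serping1, the inhibitor of the first component, by 2.22 ± 0.27, C2 by 1.38 ± 0.26 and Cfb by 1.16 ± 0.22. Vegfc, the growth factor of lymphatic vessels, rose by 1.56 ± 0.30, while Vegfa, the main growth factor of blood vessels, was called lower (-1.07), though not without Thy- replicate 3 or Thy+ replicate 3.

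Mitosis genes were higher in Thy+ cells in the fit over all 18 neonatal arrays, where 33 of 63 rose (median 0.72). Ckap2l, a protein of the mitotic spindle, stood at 8.83, 8.63 and 9.55 in Thy+ and at 7.58, 7.60 and 6.72 in Thy- cells. It rose by 1.71 ± 0.28 (limma adjusted p = 0.000619) and kept its call in every planned setting. Bub1b, a spindle checkpoint kinase, was at 8.77, 8.53 and 10.51 against 8.02, 8.03 and 6.97 (1.60 ± 0.39). For both genes Thy+ replicate 3 was the highest and Thy- replicate 3 the lowest array. The count of 33 rested on Thy- replicate 3, since it was 10 without that array. It was 16 with deposited values, 10 with a common median and 4 in the fit of the 6 arrays alone. Of 38 DNA replication genes 8 rose and 1 fell. Those 8 were 3 without Thy- replicate 3 and 2 in the fit of the 6 arrays alone. Pttg1, which encodes securin, rose by 2.48 ± 0.56, but by 0.37 and with no call when probe sets shared between transcripts were left out.

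Promoters of mitosis genes hold a pair of elements, the cell cycle homology region (TTTGAA or TTCGAA) and the CCAAT box, through which cell cycle complexes and the factor NF-Y act. Of the 33 risen genes 26 had a promoter in the RefSeq table (build GRCm38.p6), and among them 9 (34.6%) held the first and 19 (73.1%) held CCAAT in the 250 bases before the start, on either strand. Among 24 mitosis genes that were not called the shares were 41.7% and 62.5%, and among 27025 promoters they were 17.4% and 34.5%. The sequences below show the 120 bases before the start of Ckap2l, Cdc20 and Ube2c, whose cell cycle homology region lies within 50 bases of the start. Capitals mark matches to these elements on either strand, and they do not overlap. Cdc20, an activator of the anaphase-promoting complex (1.42 ± 0.33), and Ube2c, a ubiquitin-conjugating enzyme of that complex (1.06 ± 0.30), were chosen after their values were seen. In the fit of the 6 arrays alone Ckap2l was called and neither of these was. Ckap2l lies on the minus strand at chr2:129297213-129297332, Cdc20 on the minus strand at chr4:118437344-118437463 and Ube2c on the plus strand at chr2:164769809-164769928.
Ckap2l: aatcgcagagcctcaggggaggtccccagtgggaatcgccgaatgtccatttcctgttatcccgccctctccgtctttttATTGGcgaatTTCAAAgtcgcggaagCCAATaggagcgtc
Cdc20: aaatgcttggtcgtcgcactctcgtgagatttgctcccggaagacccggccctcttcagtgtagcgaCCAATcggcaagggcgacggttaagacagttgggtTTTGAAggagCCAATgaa
Ube2c: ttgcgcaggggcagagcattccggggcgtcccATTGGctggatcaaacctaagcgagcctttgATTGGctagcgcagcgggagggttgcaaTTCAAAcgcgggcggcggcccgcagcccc
A match is a description of the letters, not of a bound site. A SOX-type motif (ACAATG or ACAAAG) was held by 11.1% of the 18 lower cartilage matrix genes with a promoter and by 25.5% of all promoters in the same window.

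Genes of interferon response were higher, 13 of 36, with 1 lower (median 0.52). Ifitm3, a membrane protein that blocks virus entry, stood at 11.37, 11.24 and 10.93 in Thy+ and at 9.84, 9.57 and 9.99 in Thy- cells (1.38 ± 0.18, limma adjusted p = 6.15e-05). Its relative Ifitm1 rose by 2.18 ± 0.38. Cxcl10, a chemokine that interferon induces, was the member lower, and its Thy- arrays ranged from 6.73 to 11.53. The 13 rises were 4 without Thy- replicate 3, 6 without Thy+ replicate 3 and 7 without Thy- replicate 1.

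Some markers of other cell types were called too, most of them at low levels. Among all genes 10.5% were called higher and 7.45% lower. Of 15 keratinocyte markers 4 rose (26.7%): Krt15 by 2.75, Krt5 by 2.31, Krt14 by 2.09 and the epithelial adhesion gene Epcam by 1.35. Epcam's other probe set gave 0.06. The Epcam call was lost in 5 of 16 other settings, among them without Thy- replicate 2 or 3 or Thy+ replicate 3. The summed level of the 15 markers was 11.62 to 12.24 on Thy+ and 10.85 to 11.09 on Thy- arrays, and 8 of the 15 were below the median gene in both populations. Krt15 was at 6.79, 8.65 and 7.32 in Thy+ and at 4.74, 4.99 and 4.79 in Thy- cells, with Thy+ replicate 2 the highest. Of 20 myeloid markers 3 rose, Laptm5 by 2.29, Csf1r by 1.21 and Adgre1 by 0.63, with sums of 10.21 to 10.78 and 9.86 to 9.93, and 16 were below the median gene in both. A single one of these 3 calls, and none of the 4 lymphoid calls below, was left without Thy- replicate 1 or 3 or without Thy+ replicate 3. The other 4 probe sets of Laptm5 gave between -1.06 and 0.73. Of 10 lymphoid markers 4 rose (40.0%), with sums of 9.41 to 10.05 and 8.74 to 9.08 and 7 below the median gene in both. Ptprc, which encodes the excluded antigen CD45, was at 4.35, 4.71 and 5.10 against 3.86, 4.49 and 4.21 and was not called. These few members were higher where interferon genes and the 3 called complement genes were, and their part in those results was not tested.

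Vessel, muscle and nerve markers likewise changed in part. Of 18 endothelial markers 4 rose (22.2%) and 1 fell (5.56%). Their sums were 10.65 to 10.89 in Thy+ and 10.37 to 10.52 in Thy- cells, and 13 were below the median gene in both. Tek, which encodes the excluded antigen Tie2, was among the rises at 1.51 ± 0.17. Of 15 pericyte and smooth muscle markers 5 rose (33.3%) and 2 fell (13.3%), and their sums overlapped, at 13.32 to 13.59 and 13.20 to 13.59. The 5 rises were 3 without Thy- replicate 1 or Thy+ replicate 2. Of 20 skeletal muscle markers 3 rose, with 18 below the median gene in both populations, and none of the 3 calls was kept without Thy+ replicate 3 or without Thy- replicate 1 or 3. Of 16 Schwann cell and neural markers 4 rose, led by Gap43 of growing axons (1.89 ± 0.28), and 3 fell, including S100b, which chondrocytes also express (-4.90 ± 0.39). Their sums overlapped as well, at 12.58 to 13.23 and 12.94 to 13.09, and the 4 rises were 2 without any single Thy- array.

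The same step was measured in CD105+ cells, with other arrays, and there 733 genes (4.03%) were higher and 478 (2.63%) lower. The cartilage lists fell there too: 13 of the 15 fibril genes and 12 of the 14 other matrix genes were called lower, with medians of -1.76 and -2.26. Of the fibrous genes 16 and of the fibroblast genes 16 rose. Mitosis genes rose in 10 cases of 63 and cholesterol and fatty acid genes fell in 7 of 27. A difference between these counts was not tested. A test of the difference itself was passed by 49 of all 18193 genes (0.269%), 5 with a more positive and 44 with a more negative step in CD105- cells. This split turned with array weights, which gave 420 positive and 225 negative differences. The count of 49 was 30 without Thy- replicate 1, 31 without Thy- replicate 3 and 104 without Thy+ replicate 1 of the CD105- gate.

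The genes that differed most between both steps are shown by array.

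**Figure D4:**
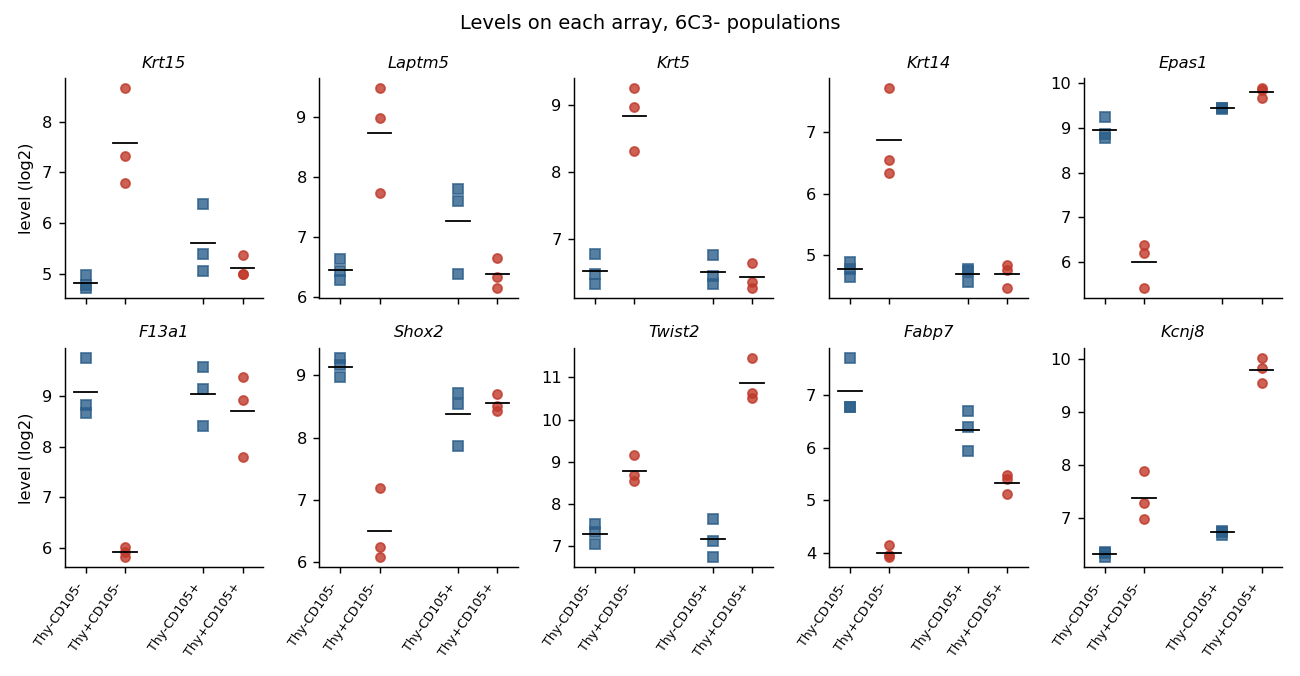
Log2 level on each array of the 4 populations negative for 6C3, for the 4 largest positive and 6 largest negative differences between the Thy steps; each panel has its own axis, and bars are means of 3 arrays. Krt5 is high only on the 3 Thy+CD105- arrays among these 12, Epas1 and Shox2 are low on them, and Twist2 and Kcnj8 are highest on the Thy+CD105+ arrays.

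Epas1, which encodes a hypoxia-inducible factor subunit, was at 6.38, 6.21 and 5.43 in Thy+ and at 8.87, 8.78 and 9.23 in Thy- cells of the CD105- gate. In the CD105+ gate it was at 9.85, 9.88 and 9.66 against 9.44, 9.44 and 9.42. The step of -2.95 ± 0.23 thus differed from that of 0.36 ± 0.23 by -3.31 ± 0.33 (limma adjusted p = 0.000185). Shox2, a homeobox factor of limb growth, was at 7.20, 6.24 and 6.08 against 9.27, 9.16 and 8.97, and its steps of -2.62 and 0.18 differed by -2.80 ± 0.47 (adjusted p = 0.0113). Kcnj8, a potassium channel of pericytes, was at 7.28, 6.99 and 7.89 against 6.26, 6.36 and 6.34 in the CD105- gate. It rose in both gates, by 1.06 and by 3.06, and the difference was -2.0 ± 0.31 (adjusted p = 0.00574). Of the 15 pericyte markers 12 rose in the CD105+ step and 7 differed between the steps. The difference for Krt5, a keratin of basal epidermis, was 2.40 ± 0.35 (adjusted p = 0.00343).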

How the data were processed

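Expression was measured on 19 arrays, 18 of them from neonatal limbs in 6 populations of 3 arrays. Replicates 2 and 3 of Thy-6C3+CD105- carry a Thy+6C3+CD105- title and were grouped by the population field. They are in neither population compared here, but entered the normalization, the choice of probe sets and the shared variance. The authors deposited log2 levels for 45101 probe sets, and the steps from scan to log2 are not given in the sources used here. Per the labels, RNA was amplified in 2 rounds with a RiboAmp kit. Deposited array medians lay between 5.60 and 6.02, so arrays were quantile normalized together. Each of 18193 genes was represented by the probe set with 1 symbol and the highest mean over the 18 neonatal arrays, with no filter on low values. Arrays carry no counts, and 3 arrays per population limit the precision. limma 3.58.1 in R 4.3.3 was fitted to the 18 neonatal arrays with a mean for each population and a variance trend (5.38 prior and 12 residual degrees of freedom), and tests were two-sided with Benjamini-Hochberg adjustment over all genes at 0.05. The fit was tested on simulated data.

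The comparison, its 46 gene lists (1134 different genes measured) and the tests were chosen with earlier results of these data known. Named genes were the 12 largest rises and falls among called genes above the median level of 6.76 without overlap, up to 4 called members of each list and direction, the sorted antigens, called markers of other cell types and the largest interactions. Sums of marker levels are log2 of summed linear levels. Promoter sequences are RefSeq's. Other settings changed the scaling, probe sets, variance model, blocks and arrays. Plots used Python 3.11.15 and matplotlib 3.10.9.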

Additional observations from a re-analysis of the deposited data

Results flagged for a closer look

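These genes stood out because the Thy step itself differed between CD105- and CD105+ cells in limma's interaction test, at adjusted p under 0.05 over all genes. The values are the step in CD105- minus the step in CD105+ cells on the log2 scale. Positive differences were found for Krt15 (3.23 ± 0.64, adjusted p = 0.0368), Laptm5 (3.18 ± 0.64, adjusted p = 0.0446), Krt5 (2.40 ± 0.35) and Krt14 (2.10 ± 0.38). For Krt15 and Laptm5 the step in CD105+ cells was -0.49 and -0.88, neither called, and for Krt5 and Krt14 it was -0.09 and -0.01.

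Negative differences were found for Epas1 (-3.31 ± 0.33), F13a1, a subunit of coagulation factor XIII (-2.83 ± 0.53), Shox2 (-2.80 ± 0.47), the transcription factor gene Twist2 (-2.20 ± 0.43), Fabp7, a fatty acid-binding protein gene (-2.06 ± 0.36), and Kcnj8 (-2.0 ± 0.31). F13a1 stood at 5.91, 6.01 and 5.81 in Thy+CD105- cells and at 7.79, 8.92 and 9.38 in Thy+CD105+ cells. Fabp7 was called lower in both gates. Twist2 rose in both, by 1.49 and by 3.69. The calls for Krt5, Epas1, Shox2 and Kcnj8 were kept in all 23 other settings tried. A second probe set of Epas1 and of Shox2 gave steps of -0.07 and 0.20 in CD105- cells. Of the others, Fabp7 lost its call in 3, Krt14 in 8, F13a1 in 9, Twist2 in 11, Krt15 in 12 and Laptm5 in 15, all without a change of sign.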

How the results depend on the processing

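Against 3271 genes called in the Thy step, leaving out 1 array gave 1549 to 4218 (762 to 2482 higher, 787 to 1736 lower). The fit of the 6 arrays alone gave 1182 (584 higher, 598 lower), and 1459 (762 higher, 697 lower) when it also left out Thy+6C3-CD105- replicate 3, an alternative chosen after seeing the data. A common median gave 928 higher and 2640 lower. Replicate numbers did not pair the arrays (deviations of same-numbered arrays correlated at -0.02, -0.15 and -0.03), and the replicate block gave 3531 calls and ended 3 of the named ones. In CD105+ cells, 1211 genes became 2889 with array weights, and 781 to 1033 without 1 array. The 49 interactions became 86 with a common median, 12 above the median level, 77 with the mean of probe sets, 645 with array weights (420 positive, 225 negative) and 25 to 104 without 1 array. Of 246 called named genes, 136 were called in each of up to 17 other settings. Some turned direction, such as Fgfr4 to -0.01 with the mean of probe sets. With shared probe sets left out, Panx3 turned to 0.09, Fgfr4 to -1.76, Fgfr2 to 0.03, Col22a1 to 0.31 and Hoxa10 to 0.18. That setting also returned -1.02 under the name Pcolce and 0.14 under Gadd45g. All probe sets of these genes are shared, so neither value measures the gene named, and neither gene was tested there. With populations taken from the titles 3162 genes were called.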

Other observations

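Genes listed as S100 calcium-binding changed by member, with 5 of 13 higher and 3 lower (median 0.45). The lower members were S100b, S100a1 and S100pbp (-1.31), which is not itself an S100 gene. S100a1 went from -1.08 to -0.06 and lost its call when probe sets shared between transcripts were left out. S100a4, a marker of fibroblasts, rose by 1.93 ± 0.38 and S100a6 by 1.26 ± 0.17 (limma adjusted p = 0.00267 and 7.10e-05). Of 32 integrins and cadherins 7 rose and 4 fell (median 0.30). Cdh13, a cadherin without a cytoplasmic part, stood at 9.16, 10.13 and 9.62 in Thy+ and at 8.09, 8.04 and 8.43 in Thy- cells, a rise of 1.45 ± 0.28. Itga10, the collagen receptor subunit of chondrocytes, fell by 2.40 (SE 0.59). The 7 rises were 2 with a common median, 3 in the fit of the 6 arrays alone and 4 without Thy- replicate 1 or 3, and the 4 falls were 2 without Thy- replicate 3. Of 42 limb patterning and Hox genes 5 rose (11.9%) and 3 fell (7.14%), near the 10.5% and 7.45% of all genes. The counts were 2 and 5 with a common median, and the rises were 1 in the fit of the 6 arrays alone and 1 without Thy- replicate 3. Hoxc8 fell by 1.99 (SE 0.30). Among 23 adipogenic and lipid genes, Plin2 of lipid droplets rose by 1.15 ± 0.15 (adjusted p = 4.54e-05) and Lpl, a lipase of the vessel wall, by 1.32 ± 0.26. The transcription factor gene Cebpb fell by 1.97 (SE 0.33).

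Of 53 respiratory chain genes 12 rose (median 0.31), between 0.41 and 0.86, and none of these calls was kept with deposited values, with a common median or in the limma fit of the 6 arrays alone. Of 38 cytosolic ribosomal protein genes 1, Rpl12, fell (median 0.03), and its Thy- arrays ranged from 5.26 to 9.10.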
